A study of Mus musculus with 12 samples.

Results

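The RNA levels of 10 homeobox genes were followed through 12 libraries of mouse intestinal stem cells: Msx1, Gbx2, Hoxb2, Hoxb3, Hoxb4, Hoxa9, Cdx1, Cdx2, Pdx1 and Onecut2. They were taken by symbol, to set homeobox genes foreign to the intestinal epithelium beside those that mark position along the gut, and 10 of 10 were found among the 14082 gene symbols used. The choice was made with the genotype differences of these same libraries in view, so the genotype differences of the 10 genes are given as descriptions, without tests. The libraries came from Lgr5-GFP+ cells isolated by FACS, 4 from ApcFlox/Flox mice (Apc_KO), 4 from ApcFlox/+ mice (Apc_HET) and 4 from Apc+/+ mice (Apc_WT). All mice were C57BL/6 and carried the Lgr5-CreERT2-ires-eGFP allele, in which the Lgr5 gene drives both the reporter and the tamoxifen-dependent Cre, so recombination starts in the cells that were sorted. All of them, Apc_WT included, were given tamoxifen, first by injection and then in the diet, and cells were taken on day 15. The labels name the intestinal epithelium as the tissue and give no segment of the gut, and no age, sex or batch.

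Homeobox genes encode transcription factors that bind DNA through a homeodomain, a fold of helices of which the last lies in the major groove. In the gut endoderm, Cdx2 and Cdx1 set and keep intestinal identity, Pdx1 marks the region of pancreas, posterior stomach and duodenum, and Hox genes are expressed in nested domains along the body axis. The Apc protein holds together the machinery that degrades beta-catenin, and without it Wnt target genes are switched on in intestinal stem cells.

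The feature that the genes of this family share is shown first, with the bases that differ around it. The stretch printed for 4 of the genes is the last 60 bases of the homeobox, from GENCODE M21 transcripts on GRCm38, 5′ to 3′ on the coding strand. Capitals mark the 18 bases that encode the conserved tryptophan, phenylalanine, glutamine, asparagine and arginine pair of the recognition helix.
Gbx2: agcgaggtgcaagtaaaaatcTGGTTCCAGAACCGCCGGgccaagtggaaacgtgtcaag
Hoxb2: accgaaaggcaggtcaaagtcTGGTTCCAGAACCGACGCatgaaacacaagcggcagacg
Cdx2: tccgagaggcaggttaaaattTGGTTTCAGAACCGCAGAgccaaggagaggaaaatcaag
Pdx1: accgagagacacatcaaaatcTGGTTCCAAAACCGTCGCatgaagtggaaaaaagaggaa

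Over the whole 180-base homeobox of 5 genes, Gbx2, Hoxb2, Cdx1, Cdx2 and Pdx1, compared in 10 pairs, identity ran from 55.6% between Cdx2 and Pdx1 to 78.3% between Cdx1 and Cdx2. Hoxb2 shared 67.2% of these bases with Pdx1 and 66.1% with Gbx2. The homeobox of Onecut2 has another form of the recognition helix and was not compared.

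Several of the genes lie side by side on GRCm38. Pdx1 (chr5:147269959-147275848) and Cdx2 (chr5:147300805-147307270) are 24956 bases apart. Hoxb4 (chr11:96318267-96321638), Hoxb3 (chr11:96323326-96347930) and Hoxb2 (chr11:96350525-96354012) follow each other with gaps of 1687 and 2594 bases. Msx1 (chr5:37820485-37824583), Gbx2 (chr1:89927956-89931179) and Hoxa9 (chr6:52223100-52231089) stand elsewhere, as do Cdx1 (chr18:61018862-61036199) and Onecut2 (chr18:64340020-64400987).

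RNA levels are FPKM, fragments scaled by transcript length and by the mapped fragments of the library, which allow levels of different genes to be set side by side. Total FPKM per library ran from 391710 to 518428 in Apc_KO, 411679 to 440254 in Apc_HET and 407340 to 496814 in Apc_WT. The numbers of fragments are not given, so no counting error is attached to a value, and a zero means only that a gene is listed at 0. The sorted cells carried epithelial RNA, with Epcam at 649 to 1110.0 FPKM in Apc_KO, 750.3 to 776.5 in Apc_HET and 740.8 to 881.6 in Apc_WT, although the keratin gene Krt19 was at or under 0.907 FPKM in all 12. Apc itself read 9.94 to 17.3 FPKM in Apc_KO, 9.81 to 12.5 in Apc_HET and 6.91 to 10.5 in Apc_WT. That value covers the whole gene and does not measure the deletion.

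In Apc_KO cells, Msx1 and Gbx2 averaged 97.5 and 57.2 FPKM, while Apc_HET and Apc_WT cells had at most 0.487 FPKM of either in any library. The 4 Hox genes were low in every genotype and averaged 2.86 to 2.98 times their Apc_WT mean in Apc_KO. Cdx1, Cdx2 and Pdx1 stood at 41.4%, 45.4% and 31.7% of their Apc_WT mean in Apc_KO, and Onecut2 at 74.8%.

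Counted over the 10 genes, 6 had all Apc_KO libraries above all Apc_WT libraries, 3 had all below, and Onecut2 overlapped. Over the 12962 genes that passed a filter of at least 1 FPKM in at least 4 libraries, 24.3% were higher and 16.0% lower without overlap. The genes were chosen on this contrast, so nothing is read from their count. Against Apc_HET, 3 were higher without overlap (Msx1, Gbx2 and Hoxa9), 4 were lower (Cdx1, Cdx2, Pdx1 and Onecut2), and Hoxb2, Hoxb3 and Hoxb4 overlapped, beside 21.4% higher and 18.0% lower over all genes. Apc_HET and Apc_WT overlapped for all 10, beside 6.08% of all genes without overlap in either direction. The comparisons share libraries and are not independent of each other. Of the 10 genes, Msx1, Gbx2, Hoxb3 and Hoxa9 passed that filter only through Apc_KO libraries.

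**Figure D1:**
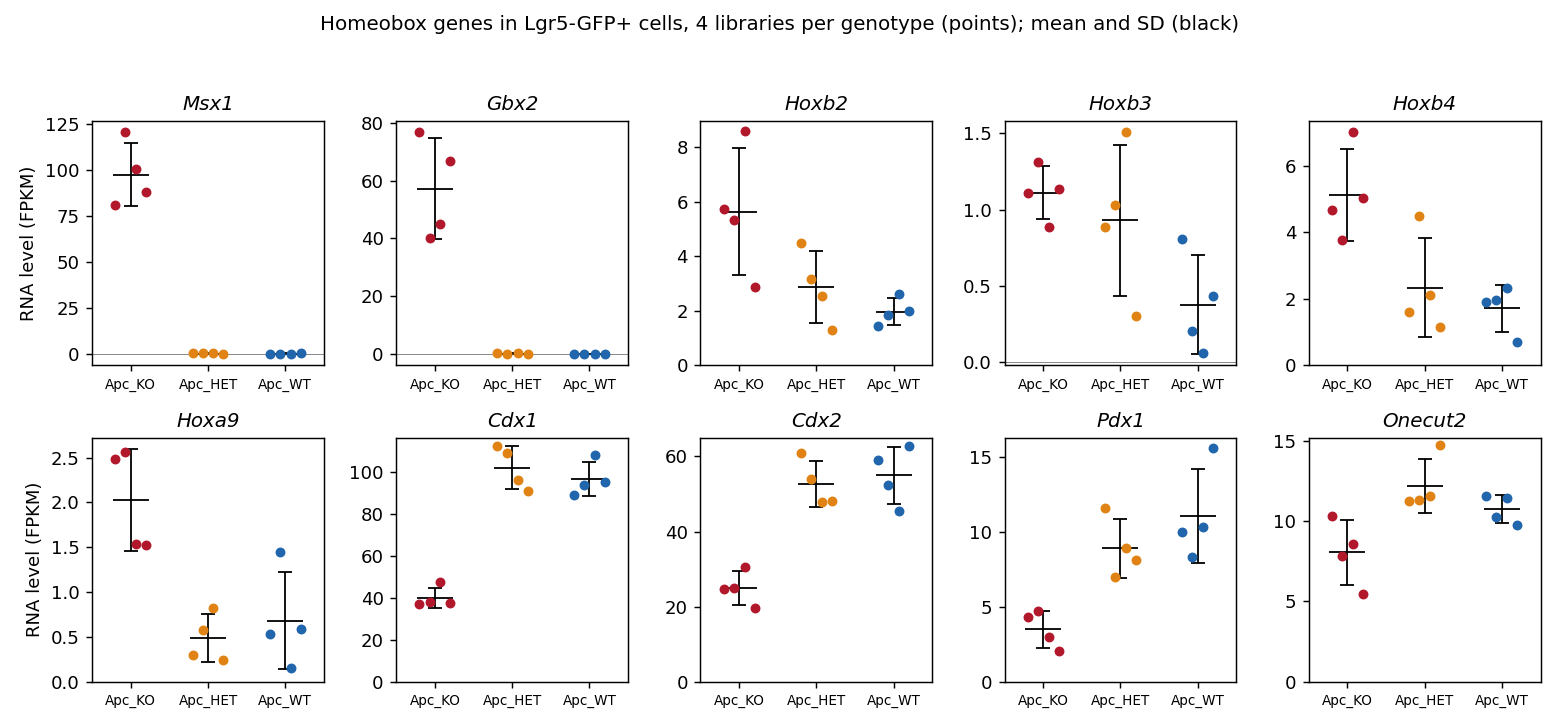
RNA levels of the 10 homeobox genes in FPKM, 1 panel per gene with its own axis. Points are libraries, 4 per genotype, with Apc_KO in red, Apc_HET in orange and Apc_WT in blue, and black marks are means with SD; the Apc_KO points of Msx1 lie between 81.0 and 120.4 FPKM, and those of Cdx1 between 37.1 and 47.2 FPKM, below all points of the other genotypes.

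Msx1 encodes a homeodomain repressor known from limb, tooth and craniofacial development. It read 81.0, 120.4, 100.6 and 88.0 FPKM in Apc_KO replicates 1 to 4, 0.429, 0.459, 0.487 and 0.0679 FPKM in Apc_HET, and 0.228, 0.195, 0.193 and 0.430 FPKM in Apc_WT. Every Apc_KO library was high, and the Apc_HET and Apc_WT libraries overlapped near 0. The difference of mean log2(FPKM + 1) was 6.27 (SE 0.15) for Apc_KO minus Apc_WT, 6.17 for Apc_KO minus Apc_HET and 0.10 for Apc_HET minus Apc_WT. In these sorted bulk samples, more cells that carry an RNA and more of it per cell cannot be told apart, here and for every gene below.

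Gbx2 encodes a homeodomain factor of the anterior hindbrain and inner ear. It read 76.7, 40.2, 45.0 and 66.9 FPKM in Apc_KO, 0.220, 0.0272, 0.230 and 0.0723 FPKM in Apc_HET, and 0.0638, 0, 0.0342 and 0 FPKM in Apc_WT. The Apc_KO libraries were again far from the rest, and 2 Apc_WT libraries listed the gene at 0. The order inside Apc_KO was not that of Msx1, since replicates 1 and 4 were highest for Gbx2 and lowest for Msx1. The log2 difference was 5.78 (SE 0.19) for Apc_KO minus Apc_WT, 5.63 for Apc_KO minus Apc_HET and 0.15 for Apc_HET minus Apc_WT. The symbol covers another locus of 959 bases upstream of the gene, inside the noncoding RNA gene D130058E05Rik. That locus added 5.31, 1.97, 1.79 and 7.82 FPKM in Apc_KO and was listed at 0 in all Apc_HET and Apc_WT libraries. D130058E05Rik lies on the other strand and also overlaps the main Gbx2 locus. The sources used here do not state whether counting used strand, so reads of Gbx2 and D130058E05Rik cannot be told apart.

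The size of both differences depends on the constant added before taking logarithms, because the Apc_HET and Apc_WT values are near 0. With 0.1 FPKM added in place of 1, Apc_KO minus Apc_WT was 8.11 for Msx1 and 8.83 for Gbx2. Msx2, the closest relative of Msx1, was named after its values were seen and did not pass the filter on low values. It read 6.49, 22.0, 14.9 and 0.487 FPKM in Apc_KO, was listed at 0 in all Apc_HET libraries, and read 0, 0, 0 and 0.280 FPKM in Apc_WT.

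The Hox genes encode factors that give cells of the trunk and gut their position along the body axis. Hoxb2 read 5.72, 5.32, 8.59 and 2.89 FPKM in Apc_KO, 4.50, 3.17, 2.53 and 1.30 FPKM in Apc_HET, and 1.45, 1.83, 2.61 and 1.99 FPKM in Apc_WT. The lowest Apc_KO library, replicate 4, was only just above the highest Apc_WT library and below 2 Apc_HET libraries. Its log2 difference was 1.10 (SE 0.29) for Apc_KO minus Apc_WT and 0.77 for Apc_KO minus Apc_HET. The deposited locus covers 53.9% of Hoxb2 together with the whole neighbourhood up to Hoxb1, so the value is not that of Hoxb2 alone.

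Hoxb4 read 4.67, 3.76, 7.03 and 5.03 FPKM in Apc_KO, 1.59, 4.48, 2.13 and 1.15 FPKM in Apc_HET, and 1.90, 1.96, 2.32 and 0.695 FPKM in Apc_WT. All Apc_KO libraries lay above the Apc_WT ones, and Apc_HET replicate 2 lay among the Apc_KO libraries. On the log2 scale the difference was 1.19 (SE 0.30) for Apc_KO minus Apc_WT and 0.94 for Apc_KO minus Apc_HET. The locus is 315 bases long and spans 9.37% of the gene.

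Hoxb3 was the lowest of the 10 genes in Apc_KO. It read 1.11, 1.31, 0.887 and 1.13 FPKM in Apc_KO, 0.885, 1.03, 1.51 and 0.304 FPKM in Apc_HET, and 0.805, 0.208, 0.0617 and 0.434 FPKM in Apc_WT. Apc_KO and Apc_WT were separated by a narrow gap, and Apc_HET covered the range of Apc_KO and beyond. The log2 difference was 0.64 (SE 0.21) for Apc_KO minus Apc_WT, 0.48 for Apc_HET minus Apc_WT and 0.16 for Apc_KO minus Apc_HET. The same locus carries the antisense gene Hoxb3os, whose own row read 0.974 to 1.90 FPKM in Apc_KO, 0.166 to 1.28 in Apc_HET and 0.326 to 0.733 in Apc_WT. The sources used here do not state whether counting used strand, so reads of Hoxb3 and Hoxb3os cannot be told apart.

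Hoxa9, a gene of the posterior trunk and of blood progenitors, read 2.48, 2.56, 1.53 and 1.53 FPKM in Apc_KO, 0.299, 0.575, 0.823 and 0.247 FPKM in Apc_HET, and 0.534, 1.44, 0.153 and 0.591 FPKM in Apc_WT. Unlike Hoxb2, Hoxb3 and Hoxb4, it did not overlap between Apc_KO and either other genotype, although Apc_WT replicate 2 came close to the lower Apc_KO libraries. On the log2 scale the difference was 0.88 (SE 0.23) for Apc_KO minus Apc_WT and 1.02 for Apc_KO minus Apc_HET. With 0.1 FPKM added, Apc_KO minus Apc_WT was 1.68 for Hoxa9 and 1.61 for Hoxb3, and with quantile normalization it was 0.56 for Hoxa9 and 0.34 for Hoxb3.

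Few other Hox genes were measured. Of 39 genes of the 4 Hox clusters, 9 were among the symbols used, and the 4 described above were those that reached 1 FPKM in at least 4 libraries. Hoxa7, named after its values were seen, stayed under that filter and read 2.70, 1.11, 0.578 and 1.91 FPKM in Apc_KO, against 0.142 to 0.489 FPKM in Apc_HET and 0.223 to 0.488 FPKM in Apc_WT. All of its Apc_KO libraries lay above the others. Hoxa10 overlapped between genotypes, at 0.307 to 4.20 FPKM in Apc_KO, 0.147 to 0.944 FPKM in Apc_HET and 0.327 to 1.53 FPKM in Apc_WT. No Hoxd gene was among the symbols used.

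The caudal-type genes stood the other way round. Cdx1, a Wnt-responsive intestinal factor, read 37.1, 38.0, 47.2 and 37.3 FPKM in Apc_KO, 112.1, 109.0, 95.9 and 90.7 FPKM in Apc_HET, and 88.9, 93.7, 108.0 and 95.2 FPKM in Apc_WT. The highest Apc_KO library stayed well under the lowest library of the other genotypes. The mean was 39.9 ± 4.90 FPKM in Apc_KO, 101.9 ± 10.3 FPKM in Apc_HET and 96.4 ± 8.16 FPKM in Apc_WT (SD, n = 4 each). The log2 difference was -1.25 (SE 0.11) for Apc_KO minus Apc_WT and -1.33 for Apc_KO minus Apc_HET.

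Cdx2, the factor required for intestinal in place of gastric or squamous fate in the mouse, read 24.6, 25.0, 30.5 and 19.7 FPKM in Apc_KO, 61.0, 53.9, 48.0 and 48.2 FPKM in Apc_HET, and 59.1, 52.5, 45.5 and 62.8 FPKM in Apc_WT. It was present in every Apc_KO library, at lower levels than in any library of the other genotypes. On the log2 scale the difference was -1.11 (SE 0.14) for Apc_KO minus Apc_WT, -1.06 for Apc_KO minus Apc_HET and -0.05 for Apc_HET minus Apc_WT. Both Cdx genes differed by about the same amount, and Cdx1 was above Cdx2 in each of the 12 libraries.

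Pdx1, a factor of pancreas and duodenum, read 4.33, 4.71, 2.98 and 2.04 FPKM in Apc_KO, 11.6, 7.02, 8.93 and 8.13 FPKM in Apc_HET, and 9.99, 8.35, 10.3 and 15.6 FPKM in Apc_WT. The Apc_KO libraries lay below all others. The log2 difference was -1.43 (SE 0.23) for Apc_KO minus Apc_WT, -1.16 for Apc_KO minus Apc_HET and -0.27 for Apc_HET minus Apc_WT. The deposited locus is 50287 bases long and takes in the antisense gene Plut, and without strand the reads of both cannot be told apart.

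Onecut2, a cut-homeodomain factor of liver, pancreas and duodenum, read 10.3, 7.84, 8.56 and 5.47 FPKM in Apc_KO, 11.2, 11.3, 11.6 and 14.7 FPKM in Apc_HET, and 11.6, 10.3, 11.5 and 9.74 FPKM in Apc_WT. Apc_KO replicate 1 fell inside the Apc_WT range, and all Apc_KO libraries lay below the Apc_HET ones. On the log2 scale the difference was -0.40 (SE 0.16) for Apc_KO minus Apc_WT and -0.57 for Apc_KO minus Apc_HET. Without Apc_KO replicate 4 the Apc_KO minus Apc_WT value was -0.25.

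**Figure D2:**
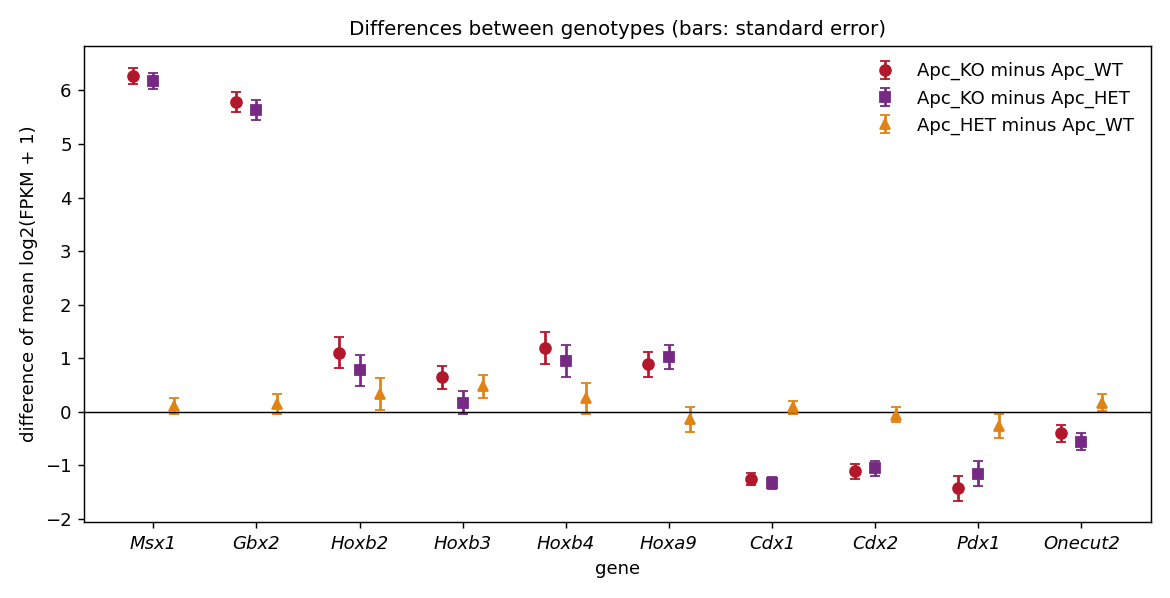
Differences of mean log2(FPKM + 1) between genotypes for the 10 genes, with standard errors as bars; circles show Apc_KO minus Apc_WT, squares Apc_KO minus Apc_HET and triangles Apc_HET minus Apc_WT. Msx1 (6.27) and Gbx2 (5.78) are the highest circles, Pdx1 (-1.43) is the lowest, and the triangles lie between -0.27 and 0.48.

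The order of levels was turned over between the genotypes. In Apc_KO it ran Msx1, Gbx2, Cdx1, Cdx2, Onecut2, Hoxb2, Hoxb4, Pdx1, Hoxa9 and Hoxb3 by mean FPKM. Among these neighbours Msx1 and Gbx2, Cdx1 and Cdx2, Cdx2 and Onecut2, and Hoxa9 and Hoxb3 did not overlap between libraries, and the other neighbours did. In Apc_HET the order was Cdx1, Cdx2, Onecut2, Pdx1, Hoxb2, Hoxb4, Hoxb3, Hoxa9, Msx1 and Gbx2. There Onecut2 overlapped with Pdx1, and each gene from Hoxb2 down overlapped with the next. In Apc_WT it was Cdx1, Cdx2, Pdx1, Onecut2, Hoxb2, Hoxb4, Hoxa9, Hoxb3, Msx1 and Gbx2. Pdx1 overlapped with Onecut2, and each gene from Hoxb2 to Msx1 with the next, while Msx1 and Gbx2 did not overlap.

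**Figure D3:**
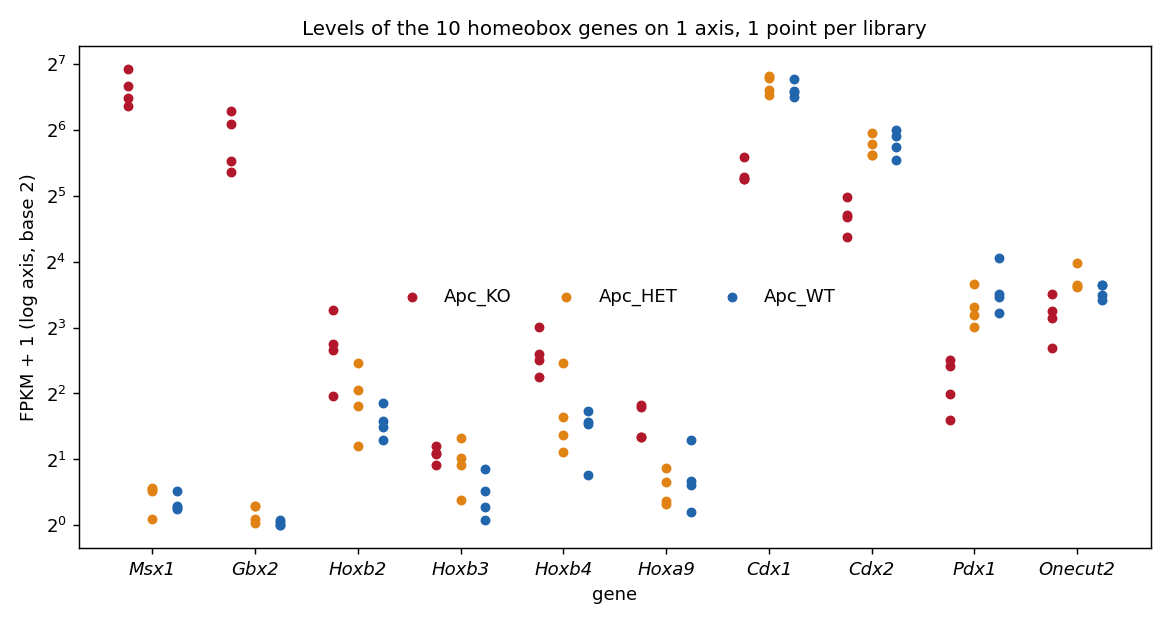
Levels of the 10 genes on a shared log axis of FPKM + 1, 1 point per library, with Apc_KO left, Apc_HET in the middle and Apc_WT right for each gene. Msx1 and Gbx2 lead in Apc_KO, with means of 97.5 and 57.2 FPKM, and Cdx1 leads in Apc_HET and Apc_WT, with means of 101.9 and 96.4 FPKM.

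Promoter windows were available from RefSeq (GRCm38.p6) for 6 of the 10 genes, Msx1, Gbx2, Hoxb4, Hoxa9, Cdx2 and Pdx1. They were searched on both strands for CTTTGAA and CTTTGAT, letters bound by TCF/LEF factors, for TTTATNG, bound by CDX factors, and for TAATTA, a homeodomain core. None of the 6 windows held any of them. Over 32851 promoters of the same length, 8.65% held a TCF/LEF motif, 10.9% the CDX motif and 5.29% the homeodomain core. The absence of a match says only that these letters are not in this window.

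The genes whose levels ran most alike over the 12 libraries were ranked by Pearson's r of log2(FPKM + 1) among 8617 or 8618 genes with a mean of at least 5 FPKM. The libraries fall into genotype groups, so r mostly follows the step between Apc_KO and the others, and it is a description. For Msx1 the closest were Asb4 (r = 0.998), Sbspon and Wif1, which encodes a secreted Wnt inhibitor. For Gbx2 they were Eml1, Pdgfrl and Nkd1, a feedback inhibitor of Wnt signalling, each at 0.998. Nkd1 averaged 99.0 FPKM in Apc_KO, 0.962 in Apc_HET and 0.804 in Apc_WT.

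For Cdx1 the closest were Sept5 (0.994), Plcb3 (0.988) and Plekha6 (0.988), and for Cdx2 they were Fgfr3 (0.979), Sfrp5 (0.978) and Eepd1 (0.978). The receptor gene Fgfr3 averaged 3.63 FPKM in Apc_KO, 13.9 in Apc_HET and 13.2 in Apc_WT. Sfrp5, which encodes a secreted frizzled-related protein, averaged 1.26 FPKM in Apc_KO, 20.6 in Apc_HET and 20.1 in Apc_WT. For Pdx1 the closest were Palld, Usp2 and Abcg8 (0.956, 0.949 and 0.946). For Onecut2 they were Nktr, Csnk1g3 and Sema5a (0.966, 0.965 and 0.962).

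The Hox genes had weaker partners. The closest to Hoxb2 were Cic, Hgs and Fbxw7 (0.927, 0.924 and 0.923), and to Hoxb4 Dhx30, Llgl1 and Kat2a (0.914, 0.901 and 0.899). Hoxb3 ran closest to the stress-response genes Atf3 and Ddit3 (0.932 and 0.931) and to Ripk4 (0.932). Atf3 averaged 784.7 FPKM in Apc_KO, 535.2 in Apc_HET and 240.8 in Apc_WT. Hoxa9 ran closest to Sorcs2, Bambi and Cxcl1 (0.914, 0.914 and 0.913). Among the 10 genes themselves r was 0.992 between Msx1 and Gbx2, 0.947 between Cdx1 and Cdx2 and 0.911 between Cdx2 and Pdx1.

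The rest of the homeobox family was taken from a list of 207 other genes, of which 83 were among the symbols used and 58 passed the filter. These were tested as rows of a limma fit over all 12962 genes, with Benjamini-Hochberg adjustment, and called under an adjusted p of 0.05. The labels do not say that the 4 libraries of a genotype came from separate mice, so p-values measure only the spread between these libraries, which may be technical. In Apc_KO against Apc_WT, 26 were called higher, 13 lower and 19 were not called, 44.8% and 22.4% of the 58 beside 27.9% higher and 17.7% lower over all genes. The median log2 difference was 0.34, beside 0.12 over all genes. Of the 58, 8 passed the filter only through Apc_KO libraries. Among the 50 that passed without them, 20 were higher and 13 lower, beside 23.9% higher and 19.0% lower of the 12065 genes that passed so over the whole table.

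Scaling shifted this balance. Size factors moved the median of all genes to 0.01 and quantile normalization to -0.02, and the share of calls over all genes that were higher was 50.3% and 47.6% in that order, against 61.2% on the deposited scale. For the 58 homeobox genes the counts were then 23 higher and 16 lower with size factors, and 22 higher and 19 lower with quantile normalization. The direction of Apc_KO minus Apc_WT was the same under both scalings for each of the 10 genes. For Hoxb3, Apc_KO minus Apc_HET was -0.02 with quantile normalization, against 0.16 on the deposited scale.

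Among homeobox genes called higher, Prox1, a factor of lymphatic endothelium, liver and some enteroendocrine and tumour cells, was the largest. It averaged 117.7 ± 44.0 FPKM in Apc_KO, 1.77 ± 1.54 in Apc_HET and 1.07 ± 0.270 in Apc_WT (SD, n = 4 each), a log2 difference of 5.77 for Apc_KO minus Apc_WT (SE 0.33, limma adjusted p = 7.97e-08). Like Msx1 and Gbx2, it was high in each Apc_KO library and overlapped between Apc_HET and Apc_WT. Pitx1, a factor of hindlimb and pituitary, averaged 56.5 ± 14.2 FPKM in Apc_KO, 16.9 ± 2.46 in Apc_HET and 16.1 ± 0.873 in Apc_WT (log2 difference 1.72, limma adjusted p = 4.60e-06).

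Pou4f1, a factor of sensory neurons, had an intermediate Apc_HET level. It averaged 24.9 ± 12.8 FPKM in Apc_KO, 6.27 ± 3.27 in Apc_HET and 0.701 ± 0.730 in Apc_WT, with no overlap between any pair of genotypes. The log2 difference was 3.88 for Apc_KO minus Apc_WT (limma adjusted p = 7.48e-06), 1.80 for Apc_KO minus Apc_HET (limma adjusted p = 0.00292) and 2.08 for Apc_HET minus Apc_WT, which was not called (limma unadjusted p = 0.000199, adjusted p = 0.859). Its locus spans 16.7% of the gene.

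Irx5, Irx4, Hhex, Pou6f1 and Cers3 passed the filter only through Apc_KO libraries, the genotype in which they were high, so their tests are not support for a difference. The iroquois genes Irx5 and Irx4, patterning factors of heart and nervous system, were called higher by 2.97 and 2.54 (limma adjusted p = 9.12e-08 and 0.00606). Irx5 averaged 7.16 ± 2.34 FPKM in Apc_KO, 0.0125 ± 0.0184 in Apc_HET and 0.00839 ± 0.00975 in Apc_WT. Irx4 read 6.46 FPKM in Apc_WT replicate 4, inside the Apc_KO range of 3.01 to 20.3 FPKM. Their loci span 20.3% and 3.54% of the genes. A locus filed under Hhex, a factor of liver and foregut, averaged 18.5 ± 4.59 FPKM in Apc_KO, 0.700 ± 0.343 in Apc_HET and 0.794 ± 0.542 in Apc_WT (log2 difference 3.45, limma adjusted p = 3.21e-07), but it lies outside the annotated gene. Pou6f1 was called higher by 1.61 (limma adjusted p = 0.00122).

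Genes of the TALE class, which holds cofactors of Hox proteins, were among those called higher, and Tgif1, Pbx3 and Meis2 are given as values chosen after they were seen. Tgif1 averaged 161.3 ± 16.8 FPKM in Apc_KO, 105.0 ± 30.0 in Apc_HET and 73.4 ± 14.3 in Apc_WT. Pbx3 averaged 13.2 ± 1.86 FPKM in Apc_KO, 7.47 ± 1.59 in Apc_HET and 6.16 ± 0.484 in Apc_WT. Meis2 averaged 8.18 ± 4.50 FPKM in Apc_KO, 1.83 ± 0.204 in Apc_HET and 1.98 ± 0.477 in Apc_WT. Cers3, a ceramide synthase gene with a homeobox-like stretch, was called higher (log2 difference 1.78, limma adjusted p = 0.000185), from a locus that spans 4.87% of the gene.

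Among homeobox genes called lower, Barx2, a factor of several embryonic epithelia, was the largest. It averaged 1.13 ± 0.724 FPKM in Apc_KO, 15.0 ± 4.00 in Apc_HET and 13.8 ± 2.40 in Apc_WT (log2 difference -2.84, SE 0.25, limma adjusted p = 2.75e-06). Isx, an intestine-specific regulator of vitamin A uptake and a known target of Cdx2, averaged 2.86 ± 0.768 FPKM in Apc_KO, 14.0 ± 2.83 in Apc_HET and 12.9 ± 1.36 in Apc_WT (log2 difference -1.86, limma adjusted p = 2.18e-06). Pou2f3, the tuft cell factor, and Nkx1-2 were called lower by differences of -0.97 each (limma adjusted p = 0.00596 and 0.00514), with libraries that overlapped Apc_WT and, for Nkx1-2, a locus of 14.5% of the gene.

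Nkx2-2, Isl1, Lmx1a and Pax4, factors of enteroendocrine cells, were among those called lower. Nkx2-2 averaged 2.88 ± 1.17 FPKM in Apc_KO, 10.8 ± 0.840 in Apc_HET and 8.64 ± 1.71 in Apc_WT (log2 difference -1.36, limma adjusted p = 0.000386). Isl1 (-1.25, limma adjusted p = 0.000606), Lmx1a (-1.04, limma adjusted p = 0.000656) and Pax4 (-1.03, limma adjusted p = 0.00147) were below 1 FPKM on average in Apc_KO. Hormone and granule genes of these cells moved with them: 9 of 9 enteroendocrine markers were called lower, beside 17.7% of all genes, with a median log2 difference of -2.89. Their summed level was 25.2 to 139.6 FPKM in Apc_KO, 561.8 to 790.0 FPKM in Apc_HET and 313.7 to 1301 FPKM in Apc_WT. The part of these cells in the lower Pdx1 level was not tested.

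**Figure D4:**
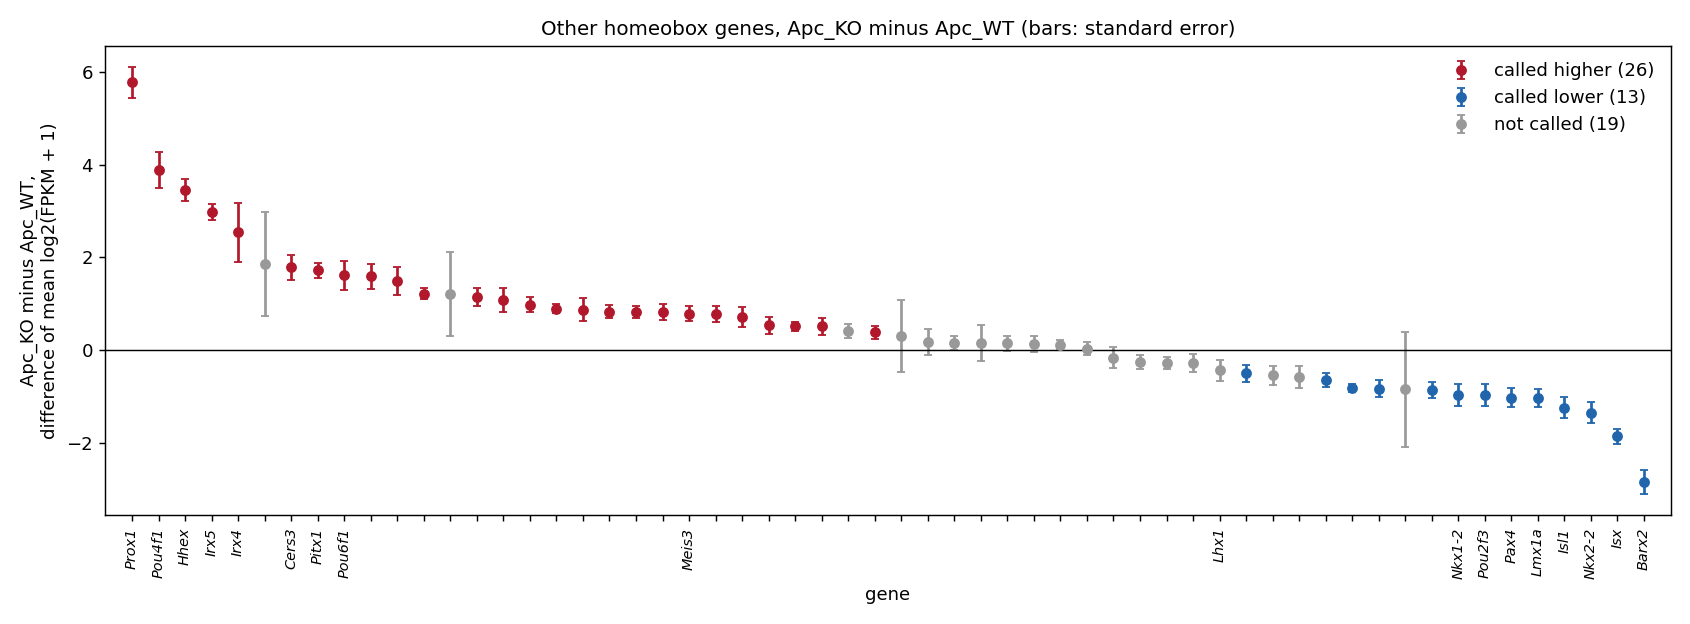
Difference of mean log2(FPKM + 1), Apc_KO minus Apc_WT, for the 58 other homeobox genes that passed the filter, sorted from highest to lowest, with standard errors as bars and names for the genes chosen by rule. Red marks the 26 called higher, from Prox1 at 5.77 down, blue the 13 called lower, to Barx2 at -2.84, and grey the 19 not called.

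Against Apc_HET, 20 of the 58 were called higher in Apc_KO and 15 lower, 34.5% and 25.9% beside 22.8% and 18.9% over all genes. Among the 50 that passed the filter without Apc_KO libraries, 14 were higher and 15 lower. Of the 12065 genes that passed so over the whole table, 18.8% were higher and 20.3% lower. Prox1, Hhex, Irx4 and Irx5 led the higher ones, at 5.48, 3.51, 3.17 and 2.97 on the log2 scale. All but Prox1 passed the filter only through Apc_KO libraries, and the Hhex locus lies outside the annotated gene. Barx2, Isx, Nkx2-2 and Isl1 led the lower ones, at -2.94, -1.96, -1.66 and -1.57. In Apc_HET against Apc_WT limma called none of the 58, and none of all 12962 genes, at adjusted p under 0.05, while 7 of the 58 and 4.33% of all genes were under an unadjusted p of 0.05. After Pou4f1, the smallest unadjusted p belonged to Meis3 (log2 difference 0.49, limma unadjusted p = 0.0128) and Lhx1 (0.64, limma unadjusted p = 0.0146). Meis3 averaged 4.02 ± 0.884 FPKM in Apc_KO, 3.08 ± 0.611 in Apc_HET and 1.92 ± 0.462 in Apc_WT.

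Lists of regional genes were read beside the regulators of gut identity. Of 20 genes known to depend on CDX2 in the intestine, 18 were measured, and all 18 were called lower in Apc_KO than in Apc_WT, beside 17.7% of all genes. Their median log2 difference was -2.74. The brush-border enzyme gene Sis averaged 6.61 ± 3.86 FPKM in Apc_KO, 80.0 ± 51.8 in Apc_HET and 137 ± 77.8 in Apc_WT. Lct, which encodes lactase, averaged 0.658 ± 0.407 FPKM in Apc_KO, 9.18 ± 5.40 in Apc_HET and 23.9 ± 11.3 in Apc_WT. Many of these genes belong to mature enterocytes and goblet cells, and the parts of such cells and of Cdx2 in their levels were not tested.

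Most of the stomach genes that passed the filter went the other way. Of 20 genes of gastric epithelium, 16 were measured and 11 passed the filter. Of these, 9 were called higher in Apc_KO than in Apc_WT, 0 lower and 2 were not called, beside 27.9% higher and 17.7% lower over all genes, with a median of 2.04. As 7 of the 11, Ctse and Muc6 among them, passed only through Apc_KO libraries, the count is bound to lean upward. The tests of these 7 genes are not support for a difference. Of the 4 that passed without Apc_KO libraries, 2 were called higher, beside 23.9% of such genes over the whole table. These were Atp4a and Gkn3, named after their values were seen. Gkn3 was abundant in every genotype, at 98.6 to 294.8 FPKM in Apc_KO, 56.8 to 78.9 in Apc_HET and 55.8 to 103.8 in Apc_WT. Its Apc_KO and Apc_WT libraries overlapped. Ctse, the gastric protease cathepsin E, averaged 78.9 ± 43.9 FPKM in Apc_KO, 0.0746 ± 0.0840 in Apc_HET and 0.184 ± 0.109 in Apc_WT (log2 difference 5.92, limma adjusted p = 3.28e-08, locus 36.6% of the gene). Muc6, a mucin of gastric glands, averaged 22.0 ± 9.87 FPKM in Apc_KO, 0.0329 ± 0.00785 in Apc_HET and 0.0444 ± 0.00927 in Apc_WT (log2 difference 4.34, limma adjusted p = 1.32e-07). With a filter of 5 FPKM in 4 libraries 3 of these genes were called higher.

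The stomach genes Muc5ac, Cldn18 and Gkn1 are given as values chosen after they were seen. Muc5ac, the surface mucin, read 5.71, 3.62, 6.75 and 1.48 FPKM in Apc_KO and was listed at 0 in all Apc_WT libraries and in 3 of 4 Apc_HET libraries. Cldn18, a gastric tight junction gene, read 5.18, 2.55, 2.76 and 5.83 FPKM in Apc_KO, against at most 0.0361 in Apc_HET and 0.0481 in Apc_WT. Gkn1, a gastrokine, read 3.30, 6.15, 6.72 and 13.7 FPKM in Apc_KO and was listed at 0 in all Apc_HET libraries and in 3 of 4 Apc_WT libraries, the other reading 2.97. These genes were low beside Msx1 and Gbx2 in the same libraries. Other stomach genes were not, as Ctse and Gkn3 averaged 78.9 and 159.3 FPKM in Apc_KO, above Gbx2 at 57.2.

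Genes of intestinal segments were read in the same way. Of 9 measured genes of the proximal small intestine, 8 were called lower in Apc_KO than in Apc_WT, beside 17.7% of all genes, with a median of -3.08. The iron reductase gene Cybrd1 differed by 1.40 on the log2 scale, but it passed the filter only through Apc_KO libraries. Gsta1 fell by 3.77 on the log2 scale, and Lct by 3.84. In Apc_HET against Apc_WT the median of the same list was -1.08, with 0 genes called. Under a limma unadjusted p of 0.05 were 3 of the 9, beside 4.33% of all genes. The summed level of the list was 2585 FPKM in Apc_WT replicate 4 and 882.8 to 989.3 FPKM in the other Apc_WT libraries. In Apc_HET it ran from 303.0 to 1189 FPKM and overlapped Apc_WT. Of 14 genes of ileum and colon, 4 were called higher and 7 lower, with a median of -0.77. The share called higher, 28.6%, was near the 27.9% over all genes, while 17.7% of all genes were called lower. Bex1 averaged 113 ± 32.3 FPKM in Apc_KO, 1.81 ± 0.349 in Apc_HET and 1.21 ± 0.491 in Apc_WT, and the ileal bile acid transporter gene Slc10a2 averaged 16.8 ± 10.7 FPKM in Apc_KO, 1.58 ± 1.42 in Apc_HET and 0.840 ± 0.511 in Apc_WT. Car4 and Slc51a, genes of absorptive cells, fell by 4.40 and 3.52 on the log2 scale.

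**Figure D5:**
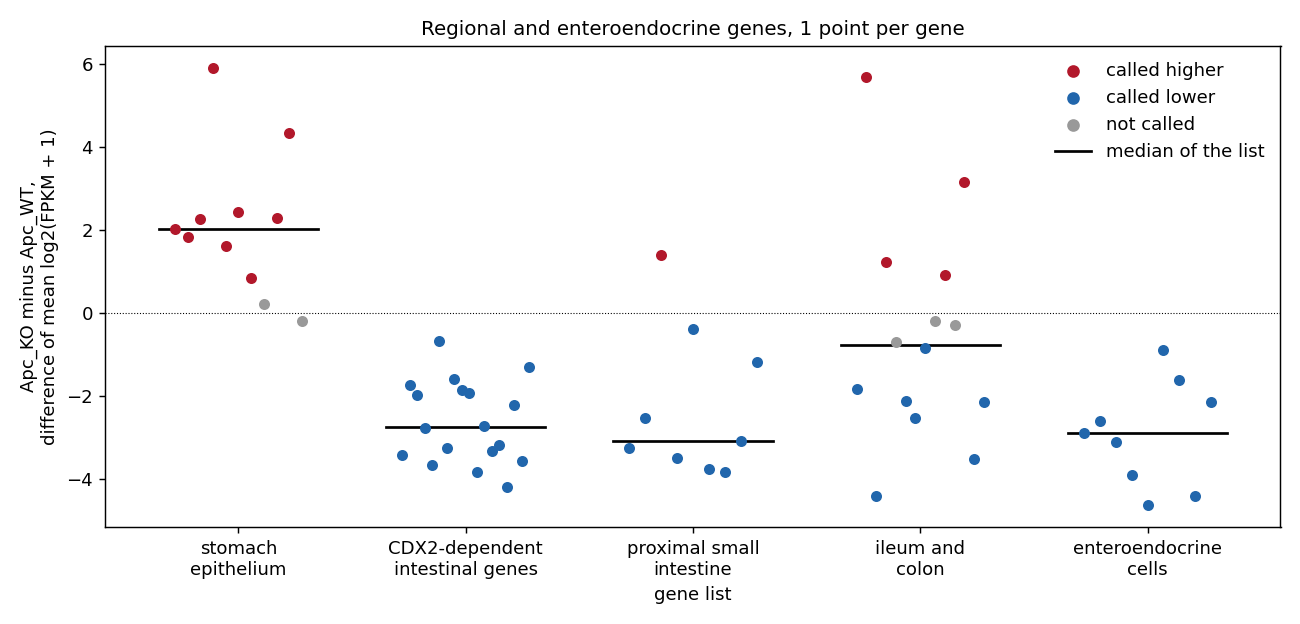
Difference of mean log2(FPKM + 1), Apc_KO minus Apc_WT, for genes of 5 lists that passed the filter, 1 point per gene, with the list median as a black line. Red points were called higher, blue lower and grey not called; the medians are 2.04 for stomach epithelium, -2.74 for CDX2-dependent genes, -3.08 for proximal small intestine, -0.77 for ileum and colon and -2.89 for enteroendocrine cells.

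Several of these homeobox genes are expressed outside the epithelium, so markers of other cells were read beside them. Of 16 mesenchymal and endothelial markers, 6 were measured and 5 passed the filter, of which 3 were called higher in Apc_KO than in Apc_WT and 1 lower, beside 27.9% and 17.7% over all genes. The 3 called higher, Cdh5, Pdgfra and Acta2, passed only through Apc_KO libraries, and of the 2 that passed without them 0 were called higher. The summed level of the markers was 93.3 to 145.6 FPKM in Apc_KO, 39.4 to 54.7 in Apc_HET and 50.4 to 80.9 in Apc_WT. Most of this sum in Apc_HET and Apc_WT was Vwf, at 29.66 to 48.72 and 46.0 to 73.03 FPKM. Vwf read 50.01 to 86.13 FPKM in Apc_KO and was not called against Apc_WT (limma adjusted p = 0.4179). Cdh5 averaged 22.7 ± 7.07 FPKM in Apc_KO, 0.00366 ± 0.00425 in Apc_HET and 0.00395 ± 0.00789 in Apc_WT, and Pdgfra averaged 17.3 ± 12.7 FPKM in Apc_KO, 0.689 ± 0.406 in Apc_HET and 0.0151 ± 0.0302 in Apc_WT, with a locus of 31.2% of the gene. Pdgfrb was called lower (-1.25, limma adjusted p = 0.00906, locus 11.3% of the gene). The collagen gene Col1a1 was listed at 0 in 2 Apc_KO, 3 Apc_HET and 2 Apc_WT libraries. It read 5.65 and 0.197 FPKM in Apc_KO replicates 1 and 3 and 0.0745 in Apc_HET replicate 4. In Apc_WT replicates 3 and 4 it read 0.972 and 2.17 FPKM. The part of such cells in Msx1, Gbx2 and the Hox genes was not tested.

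Leukocyte markers were alike in sum, at 16.0 to 24.9 FPKM in Apc_KO, 13.8 to 34.0 in Apc_HET and 17.2 to 24.2 in Apc_WT. Most of this sum was Cd14, at 8.99 to 17.4 FPKM in Apc_KO, 6.91 to 23.8 in Apc_HET and 8.70 to 17.3 in Apc_WT. Ptprc was at or under 1.10 FPKM in all 12 libraries. Among 5 tested, Itgae was called higher (1.15, locus 76.5% of the gene) and Itgam lower (-1.63). Of 2 tested markers of neurons and glia, Ret was called lower (-1.40, limma adjusted p = 0.00879, locus 33.3% of the gene), a call that ended with library weights (-0.83). Epithelial markers summed to 1996 to 3321 FPKM in Apc_KO, 2020 to 2381 in Apc_HET and 1997 to 2323 in Apc_WT, with Krt18 called higher (1.30) and Vil1 (-1.29), Cldn7 (-0.55) and Cdh1 lower. Of 6 stem cell markers, 3 were called higher, led by Axin2 (1.34), and Olfm4 was called lower (-4.42, locus 59.2% of the gene). Lgr5, among the 3 called higher, overlapped between genotypes, at 27.0 to 65.4 FPKM in Apc_KO and 20.2 to 30.0 in Apc_WT. All these calls are for Apc_KO against Apc_WT, where 27.9% of all genes were called higher and 17.7% lower.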

How the data were processed

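RNA of 12 libraries of sorted cells was sequenced from random-primed cDNA, per the labels' protocols. The authors deposited FPKM per assembled locus, per the file headers, and Cuffdiff, Cufflinks, TopHat and Bowtie are listed with the mouse build mm10 (GRCm38), per the submitters' processing notes. Versions, annotation, strand setting and fragment totals are not given in the sources used here, so depth is unknown. FPKM divides by length and by mapped fragments, so a few very abundant RNAs can lower all other values of a library, which is why other scalings were tried.

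Loci of 1 symbol were summed. The tables name 14499 symbols. Those with unlike loci between genotypes (226), without a row in 1 of them (69) or with a failed estimate (122) were dropped, which left 14082, of which 2693 have several loci. Loci without a gene name, 3548 per genotype, held 9.67% of the FPKM in Apc_WT replicate 2 and 1.01% to 3.34% elsewhere. Hoxb6 was among the symbols left out. The homeobox sequences of 4 of the genes and the values of 1 other homeobox gene are not reported here. Loci were compared with GENCODE M21 on GRCm38, and for the genes named by the rule a share of the gene is given where the locus spans under 80% of it.

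Genes with at least 1 FPKM in at least 4 libraries, 12962, entered a linear model of log2(FPKM + 1) in limma 3.58.1 (R 4.3.3), all 12 libraries in 1 fit by genotype, with a trend in the empirical Bayes step. Tests were two-sided, with Benjamini-Hochberg adjustment within each comparison. A log2 difference on this scale understates the ratio of genes near 0 FPKM. The fit was tested on simulated data.

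The 10 genes, the lists and the rules were chosen with earlier results of these data known. All 10 are named. From the other homeobox genes the rule took the 8 of largest called positive and the 8 of largest called negative difference for Apc_KO minus Apc_WT with at least 1 FPKM in the higher genotype, up to 4 in each direction for Apc_KO minus Apc_HET and the 3 of smallest p for Apc_HET minus Apc_WT. From each other list it took up to 2 in each direction, and for each of the 10 genes the 3 genes of highest correlation. Alternatives were another added constant, 2 other filters, 2 other scalings, the highest locus only, fits of 2 genotypes, library weights, a block for replicate number, and leaving out each library.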

Additional observations from a re-analysis of the deposited data

Results flagged for a closer look

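A library that stood far from the other 3 of its genotype, with a gap past the critical value of Dixon's test for 4 values, was found 19 times among 156 groups of 4, over 52 named genes. Chance gives such a gap in about 1 of 20 groups if values are normal and independent. FPKM near 0 need not be normal, and the genes share libraries, so no excess is read from the count. For Cdh5 and Pdgfra in Apc_WT the other libraries were listed at 0, where any value above 0 is flagged.

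Among the 10 genes this concerned Msx1 in Apc_HET replicate 4 (0.0679 FPKM, lowest), Msx1 in Apc_WT replicate 4 (0.430 FPKM, highest), Cdx1 in Apc_KO replicate 3 (47.2 FPKM, highest) and Onecut2 in Apc_HET replicate 4 (14.7 FPKM, highest). The Cdx1 value remained below all Apc_HET and Apc_WT libraries.

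Among the other homeobox genes, Apc_HET replicate 3 was highest for Prox1 (4.08 FPKM), Hhex (1.21 FPKM) and Isl1 (3.90 FPKM). Apc_WT replicate 4 was highest for Irx4 (6.46 FPKM), Isl1 (4.24 FPKM) and Pax4 (4.34 FPKM), and Apc_WT replicate 1 for Pou4f1 (1.78 FPKM). Apc_KO replicate 4 was lowest for Nkx2-2 (1.14 FPKM) and highest for Meis3 (5.34 FPKM).

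In the other lists, Apc_WT replicate 4 was highest for Sis (253.0 FPKM) and Gsta1 (255.5 FPKM), Apc_WT replicate 1 was lowest for Bex1 (0.484 FPKM) and highest for Pdgfra (0.0604 FPKM), Apc_WT replicate 2 was highest for Cdh5 (0.0158 FPKM), and Apc_KO replicate 1 was highest for Pdgfrb (2.67 FPKM). Apc_WT replicate 4 thus stood apart for 2 genes of enteroendocrine factors, Isl1 and Pax4, and it also had the highest summed level of enteroendocrine markers in Apc_WT, 1301 FPKM. This was not particular to enteroendocrine genes. The same library had the highest Apc_WT sums of the proximal small intestine and CDX2-dependent lists, 2585 and 3229 FPKM.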

How the results depend on the processing

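The 10 genes kept the direction of Apc_KO minus Apc_WT under every alternative that retained them. Hoxb2, Hoxb3, Hoxb4 and Hoxa9 did not reach 5 FPKM in 4 libraries, so that filter gave no value for them. Small differences between the other pairs changed sign. For Hoxb3, Apc_KO minus Apc_HET was -0.02 with quantile normalization and -0.01 without Apc_HET replicate 4. Apc_HET minus Apc_WT was -0.06 for Msx1 with quantile normalization and -0.0011 for Cdx1 with size factors. It was -0.02 for Hoxb4 without Apc_HET replicate 2, 0.06 for Hoxa9 without Apc_WT replicate 2 and 0.01 for Cdx2 without Apc_WT replicate 4. Further, 10 of 258 values with other settings moved by more than 1 SD: with 0.1 FPKM added, those of Apc_KO minus Apc_HET were 7.87 for Msx1, 7.98 for Gbx2 and 1.93 for Hoxa9, those of Apc_HET minus Apc_WT 0.85 for Gbx2 and 1.23 for Hoxb3, and library weights gave 5.50 for Gbx2 in Apc_KO minus Apc_WT. Counts depended on the filter. Without a filter 41 other homeobox genes were called higher in Apc_KO than in Apc_WT and 33 than in Apc_HET. With at least 5 FPKM in 4 libraries, 16 were called higher than in Apc_WT, 5 were called lower than in Apc_WT and 5 lower than in Apc_HET, and 3 stomach genes were called higher in each of both comparisons; fewer genes were then tested. For Apc_HET against Apc_WT, 1 gene of all was called higher with 0.1 FPKM added, with 2 genotypes in the fit and with library weights, and 0 to 4 when 1 library was left out (4 without Apc_HET replicate 4, 3 without Apc_WT replicate 3). Same-numbered libraries of 2 genotypes correlated from -0.195 to 0.180. With 4 libraries per genotype, such values cannot show whether the numbers pair them, and pairing is left unknown. With a replicate block 3467 genes were higher and 2214 lower in Apc_KO than in Apc_WT, against 3613 and 2291 without. With this block 2817 were higher and 2361 lower in Apc_KO than in Apc_HET, and 0 were called in Apc_HET against Apc_WT. The absence of fragment totals limits all values under 1 FPKM.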

Other observations

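Some homeobox genes of mesenchyme and placodes were high in single Apc_HET libraries; these genes were named after their values were seen and limma called none of those it tested between genotypes. Prrx1, a factor of limb mesenchyme and fibroblasts, read 24.4, 0.0590, 3.72 and 0.126 FPKM in Apc_KO, 55.9, 203.9, 15.4 and 4.23 FPKM in Apc_HET, and 3.86, 0.766, 19.4 and 7.62 FPKM in Apc_WT. Zeb2, a repressor of epithelial genes, read at most 2.75 FPKM in Apc_KO, 4.10, 24.3, 1.70 and 0.0948 FPKM in Apc_HET, and at most 1.04 FPKM in Apc_WT, with its highest value in the library that led for Prrx1. Dlx2 was listed at 355.7 FPKM in Apc_HET replicate 3 and at 0 in the other 11 libraries, and did not pass the filter. Hlx, a factor of gut mesenchyme, was at 5.40 and 3.43 FPKM in Apc_KO replicates 1 and 2, at 35.3 FPKM in Apc_HET replicate 3, and listed at 0 in all Apc_WT libraries. Mesenchymal markers were mixed in these libraries. Col1a1 was listed at 0 in Apc_HET replicates 1, 2 and 3. Pdgfrb read 4.58 to 9.03 FPKM in Apc_HET and 2.10 to 5.51 in Apc_WT. Pdgfra read 0.181 to 1.17 FPKM in Apc_HET and at most 0.0604 in Apc_WT. Acta2 read 1.27 FPKM in Apc_HET replicate 3 and less in the other Apc_HET libraries. The part of mesenchymal cells in these values was not tested.

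Satb1, a chromatin organiser with a homeodomain, given after looking at its level, read 8.73, 1.09, 0.784 and 5.32 FPKM in Apc_KO, at most 0.379 FPKM in Apc_HET, and 0 in all Apc_WT libraries, and did not pass the filter. Six2, a factor of kidney progenitors, was abundant in all genotypes, at 106 to 162 FPKM in Apc_KO, 169 to 216 in Apc_HET and 90.7 to 211 in Apc_WT, and limma did not call it in Apc_KO against Apc_WT.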
